A study of Mus musculus with 18 samples.

Results

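The transcripts of 10 integrin subunits of blood-forming cells were followed in 18 RNA-seq libraries: the alpha chains ITGA4, ITGA5, ITGA6, ITGA9, ITGAL, ITGAM and ITGAV, and the beta chains ITGB1, ITGB2 and ITGB7. They were chosen by name among the 25601 gene names of the deposited tables, which give mouse genes in capitals, and all 10 were found. Every library came from C57Bl/6 mouse bone marrow LSK cells, a lineage-negative, cKit+, Sca1+ fraction that holds stem cells and early progenitors. There were 6 groups of 3 libraries. Fresh irradiated and fresh control LSK cells were processed straight after sorting, each library being a pool of 3 mice. The 4 cultured groups were irradiated with DL1, control with DL1, irradiated and control, each library starting from 200 LSK cells of 1 mouse. Irradiated mice had received a sublethal 2.5 Gy dose from Cs-137 and at least 9 weeks of recovery, so both fresh and cultured irradiated cells had recovered in the animal before they were taken. All cultures, controls included, received mSCF, hFlt3L, hIL-11 and hIL-6 over 6 days and were sorted a second time for LSK cells. DL1 is not spelled out in the labels and is read here as the Notch ligand Delta-like 1; how it was given to the cells is not stated in them, nor are the ages of the mice.

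Integrins are cell surface receptors made of an alpha and a beta chain, and a chain reaches the surface only with a partner. Through them blood-forming progenitors hold to the bone marrow stroma and home to it, and mature myeloid cells leave vessels and take up particles. ITGB1 is the common partner of ITGA4, ITGA5, ITGA6, ITGA9 and ITGAV. ITGB2 pairs with ITGAL, ITGAM, ITGAX and ITGAD on leukocytes, and ITGB7 pairs with ITGA4 or ITGAE.

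Values are FPKM, fragment numbers divided by transcript length and by the size of the library, which allow genes of different length to be set side by side within a library. The fresh and cultured tables had been normalized separately, so no test spans them. LSK identity was checked with KIT, which lay between 97.5 and 119 FPKM in fresh libraries and between 31.6 and 40.2 FPKM in cultured ones, and with LY6A, the Sca1 gene, which lay between 110 and 211 FPKM in fresh and between 432 and 628 FPKM in cultured libraries. The stem cell gene PROCR was between 19.1 and 23.0 FPKM in fresh libraries and at most 1.19 FPKM in cultured ones. The T cell gene CD3E was at most 0.105 FPKM in any culture. Cultured libraries carried macrophage and neutrophil transcripts despite the second sort, and fresh libraries carried them too. Neutrophil marker sums averaged 3729 FPKM in fresh and 3195.5 FPKM in cultured controls, and macrophage marker sums 460 and 2312 FPKM. Sums of these markers are given where ITGAM and ITGB2 are described. In bulk RNA, fewer cells of a type and less RNA per cell cannot be told apart.

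In fresh control LSK cells the most abundant of the 10 transcripts were ITGB1, at 45.8 ± 1.39 FPKM, and ITGA4, the chain that binds VCAM1 and fibronectin, at 44.0 ± 3.79 FPKM (SD, n = 3). Their libraries overlapped. ITGA4 was higher than 86.3% of the 12890 genes tested in the fresh table. Next came ITGAM with 24.5 ± 7.19 FPKM and ITGB2 with 17.3 ± 2.06 FPKM, which overlapped each other. ITGA6, a laminin receptor chain, ITGAL, the alpha chain of the ICAM receptor LFA-1, the fibronectin receptor chain ITGA5 and ITGB7 followed with means between 7.89 and 14 FPKM, each overlapping the next. ITGAV and ITGA9 were lowest, with means of 4.48 and 3.71 FPKM.

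Cultured control cells showed another order. ITGAM led with 142 ± 25.9 FPKM, above 94.4% of the 12011 genes tested in the cultured table. ITGB1 had 90.9 ± 5.85 FPKM, and its 3 libraries did not overlap those of ITGAM above it or of ITGB2 below it. ITGB2 had 72.0 ± 9.91 FPKM and ITGB7 55.3 ± 10.2 FPKM, and these overlapped. ITGA4 averaged 26.2 ± 2.39 FPKM, seventh of the 10, above 68.4% of tested genes. ITGA9 was at the bottom at 0.213 ± 0.0888 FPKM. Across all 12 cultured libraries it lay between 0.122 and 0.398 FPKM, below the mean of 1 FPKM needed for testing, so 9 of the 10 subunits were tested in culture. The ratio of ITGB7 to ITGB1 within a library, which needs no scaling between tables, was 0.609 ± 0.111 in cultured controls and 0.172 ± 0.0480 in fresh controls. That of ITGA4 to ITGA6 was 0.576 ± 0.0156 in cultured controls and 3.16 ± 0.397 in fresh controls.

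**Figure D1:**
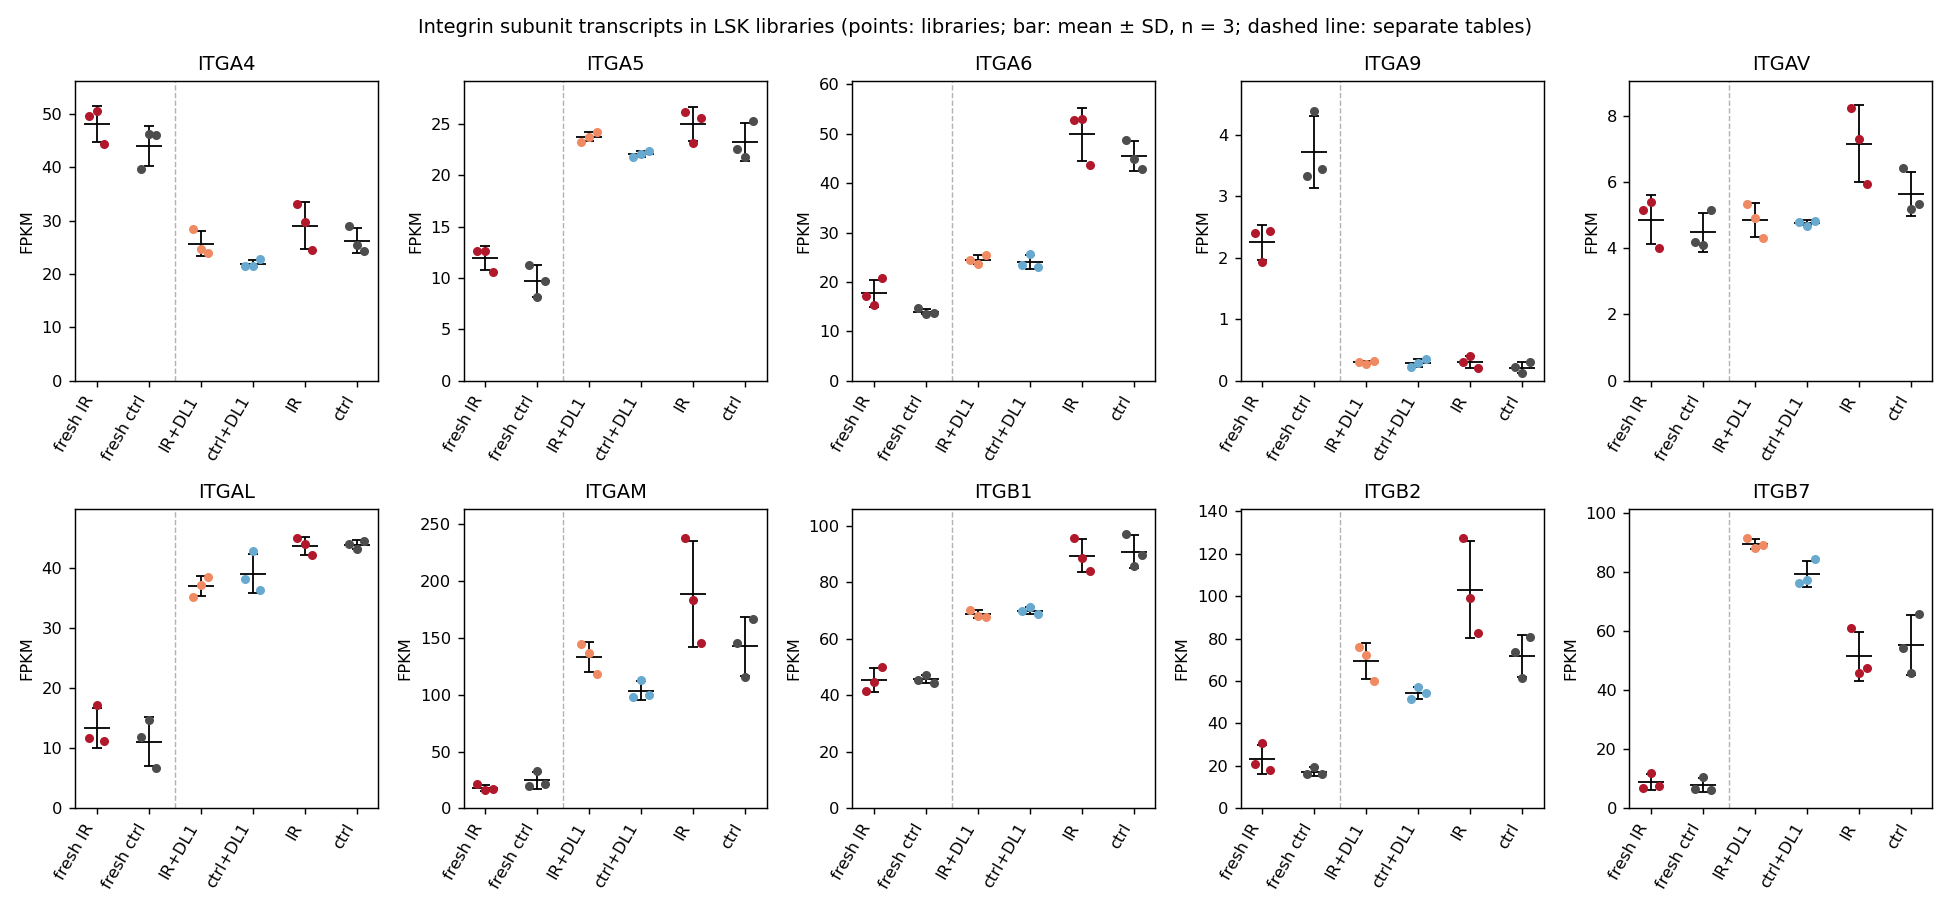
FPKM (vertical axis, linear from 0) of each of the 10 integrin subunits by group (IR, irradiated; ctrl, control; groups not marked fresh are cultures); points are libraries, bars the mean ± SD of 3, and the dashed line parts the separately normalized fresh and cultured tables. ITGB7 stands higher with DL1 and ITGA6 and ITGB1 stand lower, in irradiated and in control cultures, while ITGA9 stays below 0.4 FPKM in every culture.

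The first question was whether LSK cells that had recovered from irradiation in the mouse carried a different set of integrin transcripts. None of the 10 passed the test in fresh cells. ITGA9, partner of ITGB1 in a receptor for tenascin, osteopontin and VCAM1, had 2.41, 1.93 and 2.43 FPKM in irradiated libraries, against 3.32, 4.39 and 3.44 FPKM in control libraries. All 3 irradiated values lay below all 3 control values. As log2(FPKM + 1), the scale of all fold changes here, ITGA9 changed by -0.53 ± 0.14 (SE), and adjusted p was 0.365 (limma, Benjamini-Hochberg over all tested genes; a gene is called under 0.05). ITGA6 had 17.2, 15.3 and 20.7 FPKM in irradiated libraries, against 14.7, 13.5 and 13.8 FPKM in control libraries. These groups also did not overlap, the irradiated ones being higher, with a log2 fold change of 0.31 ± 0.11 and adjusted p = 0.604.

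Thus 0 of 10 subunits were called by limma in fresh cells, and 2 had an unadjusted p under 0.05. Of all 12890 tested genes 0.101% were called, and 885 had an unadjusted p under 0.05. The groups did not overlap for 2 of 10 subunits and for 12.7% of tested genes. The median log2 fold change was 0.13 over the 10 subunits and 0.01 over all tested genes. The shared chain ITGB1 averaged 45.4 ± 4.33 FPKM in irradiated and 45.8 ± 1.39 FPKM in control libraries, and the 95% interval of its log2 change ran from -0.21 to 0.18. ITGA4 averaged 48.1 ± 3.36 FPKM in irradiated and 44.0 ± 3.79 FPKM in control libraries, with an interval from -0.08 to 0.34.

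The leukocyte chains of fresh cells followed single libraries. ITGAM, the alpha chain of the complement receptor Mac-1, had 21.2, 16.3 and 16.8 FPKM in irradiated libraries, against 19.3, 32.7 and 21.5 FPKM in control libraries. Its highest value fell in control replicate 2, the library with the most of the neutrophil gene LY6G at 14.4 FPKM. LY6G lay between 4.35 and 12.4 FPKM in the other 5 fresh libraries. The neutrophil marker sums were 3038, 2350 and 4154 FPKM in irradiated and 2488, 4793 and 3906 FPKM in control libraries. ITGAM did not follow these sums throughout: irradiated replicate 3, with the second-highest sum, had less ITGAM than control replicate 1. ITGB2 had 20.7, 30.8 and 17.8 FPKM in irradiated libraries, against 15.9, 19.7 and 16.3 FPKM in control libraries. Its highest value, and that of ITGAL at 17.1 FPKM, fell in irradiated replicate 2, which had a macrophage marker sum of 610 FPKM, against 583 FPKM in control replicate 2 and less in the other 4. Its dendritic marker sum was 871 FPKM, against at most 509 FPKM in the other fresh libraries, and its B cell marker sum was 60.2 FPKM, against at most 35.5 FPKM. The part of these other cells in the values was not tested. The ratio of ITGAM to ITGB2 was 0.832 ± 0.267 in irradiated and 1.395 ± 0.235 in control libraries, and the 2 groups did not overlap, the irradiated ones reaching at most 1.03 and the control ones at least 1.21. Several such ratios were formed and none was tested. The lowest value, 0.528, fell in irradiated replicate 2. By limma neither chain was called (adjusted p = 0.769 for ITGAM and 0.787 for ITGB2).

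Of the selectins and other homing receptors, 1 of 8 was called in fresh cells: SELP, which encodes P-selectin, had 31.8, 27.9 and 33.4 FPKM in irradiated libraries, against 14.2, 10.4 and 10.1 FPKM in control libraries. Its log2 fold change was 1.36 ± 0.13 with adjusted p = 0.00766. Of 7 tested megakaryocyte and platelet markers 0 were called by limma, but all 7 had positive changes, 6 with an unadjusted p under 0.05, and they summed to between 95.2 and 159 FPKM in irradiated and between 53.9 and 82.5 FPKM in control libraries. Their part in the SELP value was not tested. None of the 5 tested of 16 further integrin subunits, of 26 tested activation and tail adaptors or of 12 tested ligands was called. Of these, 2, 4 and 4 had an unadjusted p under 0.05. Over all genes 885 of 12890 had one in fresh cells.

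In culture without DL1, ITGB2 rose in cells from irradiated mice. It had 128, 99.0 and 82.8 FPKM in irradiated cultures, against 73.9, 61.3 and 80.9 FPKM in control cultures. The groups did not overlap, although irradiated replicate 3 and control replicate 3 were close, and the log2 fold change was 0.50 ± 0.14 with adjusted p = 0.0216. This call was lost without irradiated replicate 1 (adjusted p = 0.0809), without control replicate 2 (0.0954), without the filter on low values (0.0525) and when the 2 groups were fitted alone (0.0697). ITGAM, its main partner here, had 238, 183 and 145 FPKM in irradiated cultures, against 145, 115 and 167 FPKM in control cultures. These overlapped, with a log2 fold change of 0.39 ± 0.16 and adjusted p = 0.0894. The other ITGB2 partner, ITGAL, had 45.0, 44.0 and 42.1 FPKM in irradiated cultures, against 44.0, 43.2 and 44.6 FPKM in control cultures, and the interval of its log2 change ran from -0.14 to 0.12. So the sum of ITGAL and ITGAM per unit of ITGB2 was 2.26 ± 0.0402 in irradiated and 2.59 ± 0.0241 in control cultures, without overlap.

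Macrophage and monocyte markers moved with ITGB2. Their 12 transcripts summed to between 3579 and 5327 FPKM in irradiated cultures and between 1887 and 2748 FPKM in control cultures, most of it from the lysozyme gene LYZ2; MARCO was under 0.1 FPKM in both groups. Of the 10 markers tested, 9 rose and 0 fell. The 10 neutrophil markers summed to between 5529 and 7792 FPKM in irradiated and between 2997 and 3314 FPKM in control cultures, although LY6G itself was at most 0.827 FPKM in either. Of this, MPO averaged 2864 FPKM in irradiated and 1555 FPKM in control cultures, and ELANE 1234 and 510 FPKM. Of 9 tested markers 6 rose, 0 fell and 3 were not called: CAMP (log2 fold change 0.59), MMP8 (0.03) and CXCR2 (-0.24). Which cells carried these markers was not tested, nor was their part in the ITGB2 value.

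**Figure D2:**
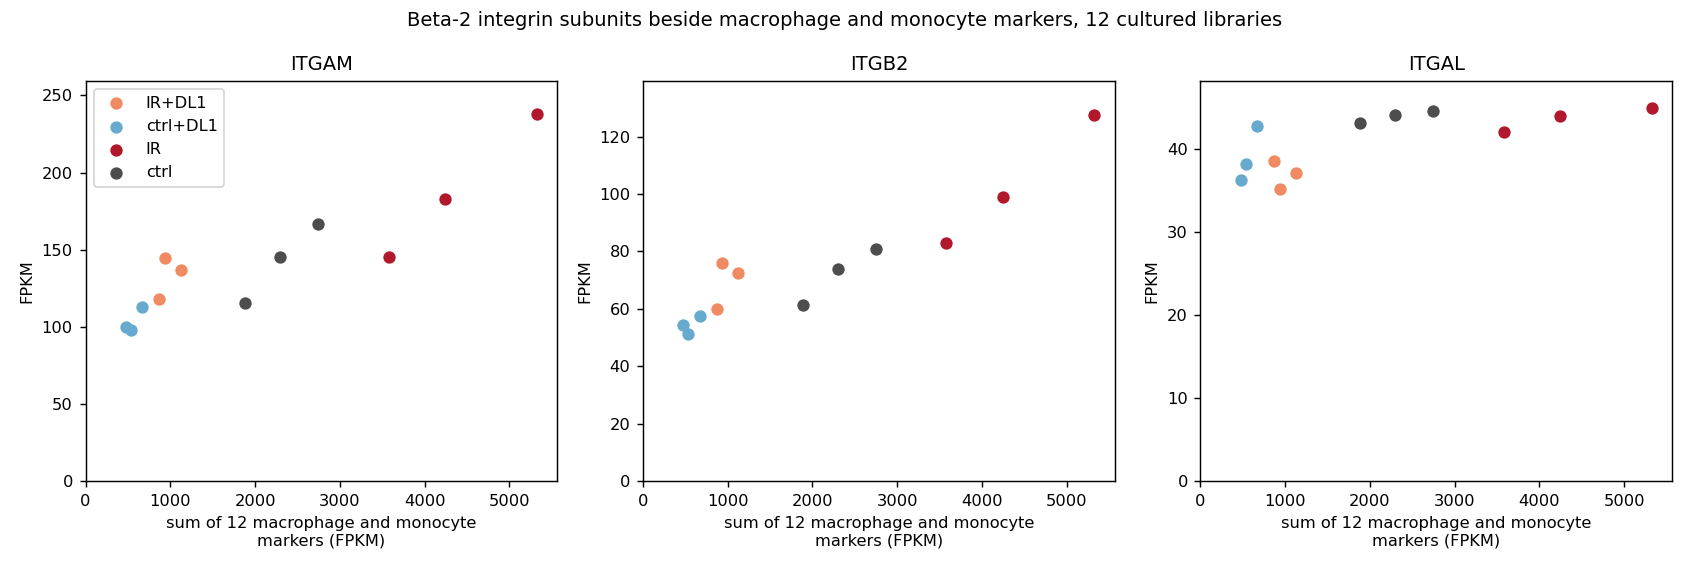
FPKM of ITGAM, ITGB2 and ITGAL (vertical axes, from 0) against the summed FPKM of 12 macrophage and monocyte markers (horizontal axis) in the 12 cultured libraries, coloured by group. Irradiated libraries without DL1 have both the highest marker sums and the highest ITGB2 values, and ITGAL spans a narrow range, from 35.2 to 45.0 FPKM.

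Among the other subunits in these cultures, the vitronectin receptor chain ITGAV had 8.24, 7.30 and 5.93 FPKM in irradiated libraries, against 6.41, 5.18 and 5.34 FPKM in control libraries. The groups overlapped and the log2 fold change of 0.29 ± 0.10 missed the threshold (adjusted p = 0.0548), though it was called under median-ratio scaling (0.0472) and without control replicate 1 (0.0373). ITGB1 averaged 89.5 ± 5.78 FPKM in irradiated and 90.9 ± 5.85 FPKM in control cultures, with an interval of the log2 change from -0.14 to 0.10. ITGB7 averaged 51.4 ± 8.31 FPKM in irradiated and 55.3 ± 10.2 FPKM in control cultures, and the interval ran from -0.36 to 0.17. ITGA4, ITGA5 and ITGA6 were higher on average by 0.14, 0.10 and 0.13 on the log2 scale, with adjusted p between 0.221 and 0.330.

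In all, 1 of 9 tested subunits was called higher and 0 lower, where 29.7% of tested genes were called, 13.8% as higher and 15.9% as lower. The split over all genes turned with the scaling: 1659 were higher and 1909 lower as deposited, and 2013 higher and 1479 lower under median-ratio scaling. The groups did not overlap for 1 of 9 subunits and for 38.1% of genes. The median log2 fold change was 0.13 over the 9 subunits and -0.03 over all genes. The count rested on single libraries: it was 0 without irradiated replicate 1 or without control replicate 2, 2 without control replicate 1 or without control replicate 3, and 5 without irradiated replicate 3, whose ITGAM, ITGB2 and ITGA6 values were the lowest of its group. Those 5 were ITGA4, ITGA6, ITGAM, ITGAV and ITGB2, all higher, with adjusted p of 0.0362, 0.0193, 0.0120, 0.00671 and 0.00344.

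Outside the 10, 2 of 7 tested integrin subunits rose in irradiated cultures and 0 fell. Of all tested genes 29.7% were called, 13.8% as higher. ITGA2B, the platelet chain that pairs with ITGB3, had 10.9, 11.2 and 11.1 FPKM in irradiated libraries, against 6.76, 6.98 and 6.67 FPKM in control libraries, a log2 fold change of 0.63 ± 0.10 (adjusted p = 0.0012). Its partner ITGB3 averaged 6.09 ± 0.730 FPKM in irradiated and 6.23 ± 0.498 FPKM in control libraries and was not called. ITGB5, a partner of ITGAV, had 76.4, 58.5 and 46.7 FPKM in irradiated libraries, against 35.4, 29.5 and 43.3 FPKM in control libraries (log2 fold change 0.72 ± 0.16, adjusted p = 0.00806). In these cultures 3 of 4 tested megakaryocyte markers, ITGA2B among them, also rose, and their part in the ITGA2B value was not tested. Macrophage markers, given above, rose as well, and their part in the ITGB5 value was not tested.

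Of 11 tested integrin ligands 5 rose and 0 fell in irradiated cultures, where 13.8% of all tested genes rose. Thrombospondin, encoded by THBS1, had 458, 499 and 336 FPKM in irradiated cultures, against 185, 182 and 150 FPKM in control cultures (log2 fold change 1.3 ± 0.15, adjusted p = 2.83e-04). VCAM1, the main counter-receptor of ITGA4 with ITGB1, had 2.99, 3.69 and 1.77 FPKM in irradiated cultures, against 0.671, 0.761 and 0.642 FPKM in control cultures. Both genes were higher in every irradiated library, and VCAM1 changed by 1.14 ± 0.15 (adjusted p = 5.42e-04). EMILIN1, a matrix glycoprotein, changed by 0.27 ± 0.045 (adjusted p = 0.00159). Macrophage and neutrophil markers, given above, also rose in these cultures, and their part in the ligand values was not tested. Of 26 tested activation and tail adaptors 5 rose and 2 fell, where 29.7% of all tested genes were called. FYN, a Src-family kinase (-0.54 ± 0.065, adjusted p = 3.12e-04), and PTK2, focal adhesion kinase (-0.64 ± 0.083, adjusted p = 4.84e-04), fell. CYTH1, cytohesin-1, a binder of the ITGB2 tail, was among those that rose (0.39 ± 0.066, adjusted p = 0.0018). Among homing receptors CXCR4 (0.32 ± 0.046) and PECAM1 (0.27 ± 0.050) rose and CD34 fell (-0.58 ± 0.067), the largest adjusted p of these 3 being 0.00279.

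With DL1 in the culture, no subunit passed the test between cells of irradiated and control mice. ITGB2 had 75.8, 72.4 and 59.8 FPKM in irradiated DL1 cultures, against 51.4, 57.4 and 54.5 FPKM in control DL1 cultures. ITGAM had 144, 137 and 118 FPKM in irradiated DL1 cultures, against 97.8, 113 and 99.8 FPKM in control DL1 cultures. Neither pair of groups overlapped, and the irradiated values were higher for both, but the log2 fold changes of 0.34 ± 0.14 and 0.36 ± 0.16 had adjusted p of 0.231 and 0.264. ITGB7 had 91.4, 88.1 and 89.1 FPKM in irradiated DL1 cultures, against 76.3, 77.3 and 84.3 FPKM in control DL1 cultures, again without overlap (0.17 ± 0.12, adjusted p = 0.461). Fitted with these 2 groups alone, these 3 genes were called, with adjusted p of 0.04997 for ITGB2, 0.0384 for ITGAM and 0.0496 for ITGB7.

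By limma on all 4 cultured groups 0 of 9 subunits were called, and 2 had an unadjusted p under 0.05. Of all 12011 tested genes 3.16% were called, and 2231 had an unadjusted p under 0.05. The groups did not overlap for 5 of 9 subunits, ITGA4, ITGA5, ITGAM, ITGB2 and ITGB7, all higher in irradiated libraries, and for 33.1% of genes. Macrophage marker sums were between 869 and 1122 FPKM in irradiated DL1 cultures and between 477 and 671 FPKM in control DL1 cultures, and neutrophil marker sums between 3272 and 4283 FPKM in irradiated DL1 and between 1981 and 2167 FPKM in control DL1 cultures. Of 9 tested neutrophil markers 5 rose and 4 were not called. MPO averaged 1699 FPKM in irradiated DL1 and 1051 FPKM in control DL1 cultures, and ELANE 673 and 323 FPKM. Which cells carried these markers was not tested, nor was their part in the ITGAM and ITGB2 values or in the ligand values that follow. THBS1 (1.25 ± 0.15, adjusted p = 0.00309), EMILIN1 (0.21 ± 0.045, adjusted p = 0.0272) and VCAM1 (0.67 ± 0.15, adjusted p = 0.0356) were the 3 ligands called, all higher, of 11 tested.

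**Figure D3:**
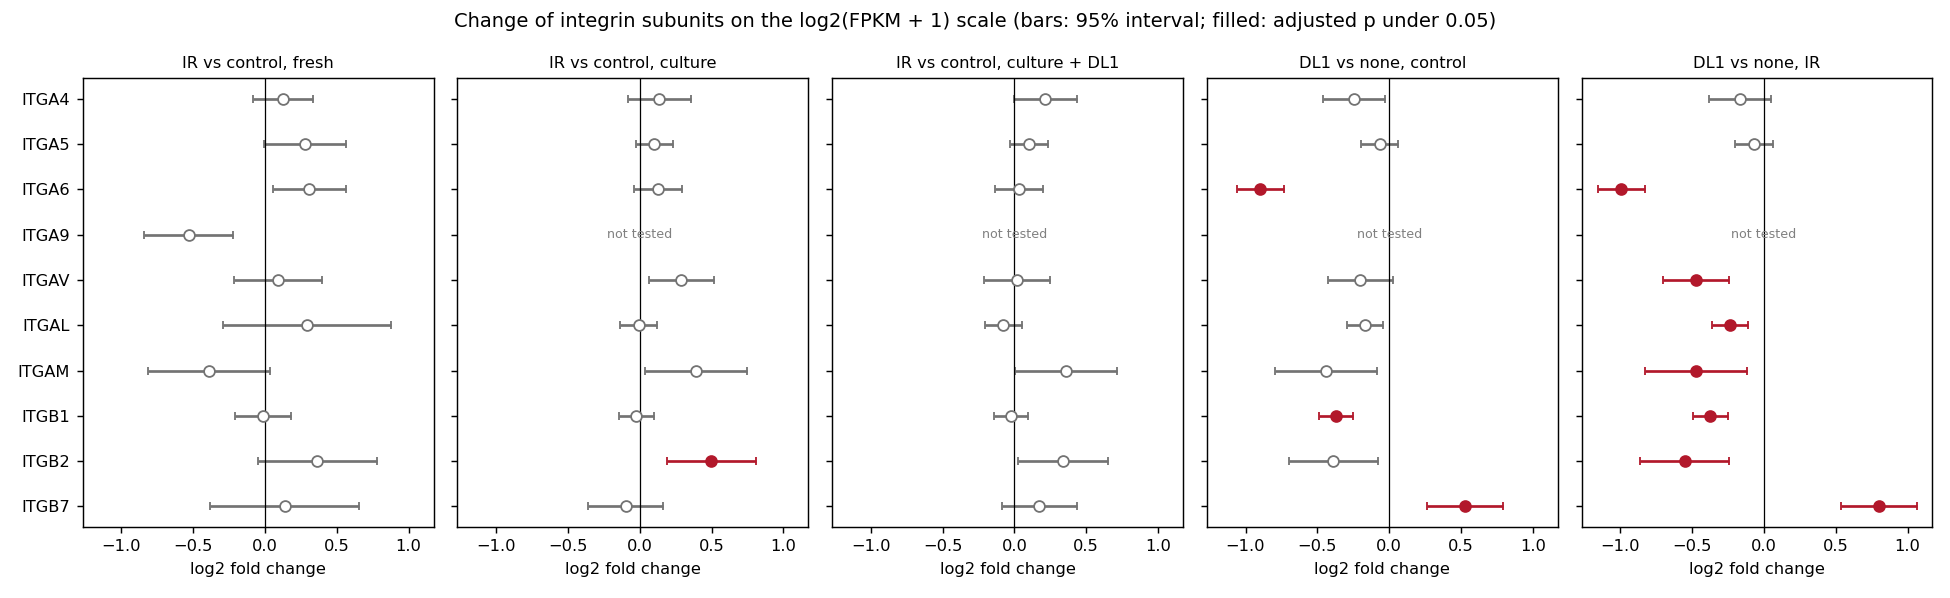
Log2 fold change on the log2(FPKM + 1) scale (horizontal axis) of each subunit in the 3 irradiation comparisons and the 2 DL1 comparisons; points are estimates, bars 95% intervals, and filled points have an adjusted p under 0.05. The irradiation panels hold 1 filled point, ITGB2 in culture without DL1, and the DL1 panels hold 3 in control and 7 in irradiated cultures.

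Whether the change after irradiation depended on DL1 was tested directly. By limma 0 of 9 subunits were called and 0 had an unadjusted p under 0.05. Of all 12011 tested genes 0.0749% were called, and 1255 had an unadjusted p under 0.05. The estimates furthest from 0 were those of ITGB7, at 0.27 ± 0.17 (irradiation change with DL1 minus that without), and ITGAV, at -0.27 ± 0.15, with adjusted p of 0.616 and 0.557. For ITGB2 the interval ran from -0.60 to 0.28, so the lone call in culture without DL1 was not shown to differ from the change with DL1.

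The last question was what DL1 changed. In control cultures ITGA6 and ITGB1 fell with DL1 and ITGB7 rose. ITGA6 had 23.4, 25.6 and 22.9 FPKM in control DL1 cultures, against 48.7, 44.9 and 42.8 FPKM in control cultures. Every DL1 library was far below every library without it, with a ratio of means of 0.527 and a log2 fold change of -0.90 ± 0.076 (adjusted p = 6.59e-06). ITGB1 had 70.0, 71.2 and 68.8 FPKM in control DL1 cultures, against 97.3, 85.8 and 89.6 FPKM in control cultures, a fall of smaller size (-0.37 ± 0.055, adjusted p = 3.62e-04). ITGB7, which with ITGA4 binds the gut vessel addressin MAdCAM and with ITGAE binds E-cadherin, had 76.3, 77.3 and 84.3 FPKM in control DL1 cultures, against 54.2, 45.7 and 66.0 FPKM in control cultures. It was higher in every DL1 library (0.53 ± 0.12, adjusted p = 0.00669).

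The same 3 genes were called in irradiated cultures. ITGA6 had 24.5, 23.6 and 25.4 FPKM in irradiated DL1 cultures, against 52.8, 53.1 and 43.8 FPKM in irradiated cultures (-0.99 ± 0.076, adjusted p = 1.83e-06). ITGB1 had 70.3, 68.3 and 67.8 FPKM in irradiated DL1 cultures, against 95.6, 88.6 and 84.1 FPKM in irradiated cultures (-0.37 ± 0.055, adjusted p = 2.47e-04). ITGB7 had 91.4, 88.1 and 89.1 FPKM in irradiated DL1 cultures, against 61.0, 45.7 and 47.7 FPKM in irradiated cultures (0.80 ± 0.12, adjusted p = 2.79e-04). None of these groups overlapped, and all 6 calls held in each of 13 alternative analyses. The irradiated comparison uses none of the libraries of the control comparison, but all 4 groups share 1 estimate of the spread.

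A further 4 chains fell in irradiated cultures. ITGAV had 5.33, 4.92 and 4.31 FPKM in irradiated DL1 cultures, against 8.24, 7.30 and 5.93 FPKM in irradiated cultures, a fall of 0.47 ± 0.10 on the log2 scale (adjusted p = 0.00373). ITGB2 had 75.8, 72.4 and 59.8 FPKM in irradiated DL1 cultures, against 128, 99.0 and 82.8 FPKM in irradiated cultures (-0.55 ± 0.14, adjusted p = 0.00906). ITGAL, which had not moved with irradiation beyond its spread, had 35.2, 37.1 and 38.5 FPKM in irradiated DL1 cultures, against 45.0, 44.0 and 42.1 FPKM in irradiated cultures. Its fall was small and without overlap (-0.24 ± 0.059, adjusted p = 0.0073). ITGAM had 144, 137 and 118 FPKM in irradiated DL1 cultures, against 238, 183 and 145 FPKM in irradiated cultures, the 2 groups parting by less than 1 FPKM (-0.48 ± 0.16, adjusted p = 0.0347). The ITGAM call was lost without irradiated replicate 1 (adjusted p = 0.143) or 2 (0.0729), without irradiated DL1 replicate 2 (0.0639) or 3 (0.119), without the filter (0.0721) and with the 2 groups alone (0.0587), while ITGAV, ITGB2 and ITGAL were called in 13 of 13 alternatives.

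In control cultures the same 4 chains were lower with DL1, each without overlap, but not called. ITGB2 averaged 54.4 ± 2.99 FPKM in control DL1 cultures and 72.0 ± 9.91 FPKM in control cultures (-0.39 ± 0.14, adjusted p = 0.063), and ITGAM 104 ± 8.34 FPKM in control DL1 and 142 ± 25.9 FPKM in control cultures (-0.44 ± 0.16, adjusted p = 0.0648). For ITGAL the log2 fold change was -0.17 ± 0.059 (adjusted p = 0.0533) and for ITGAV -0.20 ± 0.10 (adjusted p = 0.185). Without control replicate 2, whose ITGAM and ITGB2 were the lowest of its group, both were called, with adjusted p of 0.0246 and 0.0334, and the count of called subunits was 5. ITGAM and ITGB2 were also called when the 2 groups were fitted alone (0.0271 and 0.0152). ITGAL was called under median-ratio scaling (0.0289) and without control DL1 replicate 2 (0.0102), and ITGAV in 0 of 13 alternatives. As given above for the difference between the irradiation changes, which is equally the difference between the DL1 changes, none of these chains was shown to respond differently to DL1 in irradiated and control cultures. ITGA4 and ITGA5 were not called in either. ITGA4 was called as lower in control cultures when the 2 groups were fitted alone (adjusted p = 0.0229) and in irradiated cultures without irradiated replicate 3 (0.0180). ITGA5 lay between 21.8 and 24.2 FPKM in all 6 DL1 cultures and between 21.8 and 26.2 FPKM in the 6 without.

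Over the control cultures 3 of 9 subunits were called with DL1, 1 higher and 2 lower, against 26.3% of tested genes, 14% as higher and 12.3% as lower. Over the irradiated cultures 7 of 9 were called, 1 higher and 6 lower, against 41.4% of tested genes, 24.4% as higher and 17% as lower. These splits turned with the scaling. In irradiated cultures 2932 genes were higher and 2041 lower as deposited, and 2044 higher and 2459 lower under median-ratio scaling. In control cultures 1677 were higher and 1479 lower as deposited, and 1273 higher and 1711 lower under median-ratio scaling. The groups did not overlap for 8 of 9 subunits in control and 7 of 9 in irradiated cultures, against 48.3% and 48.4% of genes. The median log2 fold change of the 9 was -0.25 in control cultures, where that of all genes was 0.04, and -0.37 in irradiated cultures, where it was 0.06. Within libraries, the ratio of ITGB7 to ITGB1 was 1.301 ± 0.0118 in irradiated DL1 and 1.13 ± 0.0791 in control DL1 cultures, and 0.573 ± 0.0615 in irradiated and 0.609 ± 0.111 in control cultures without DL1. ITGB7 was thus above ITGB1 in all 6 DL1 libraries and below it in the 6 others. The ratio of ITGAM to ITGB2, by contrast, had group means between 1.82 and 1.97 in all 4 cultured groups.

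**Figure D4:**
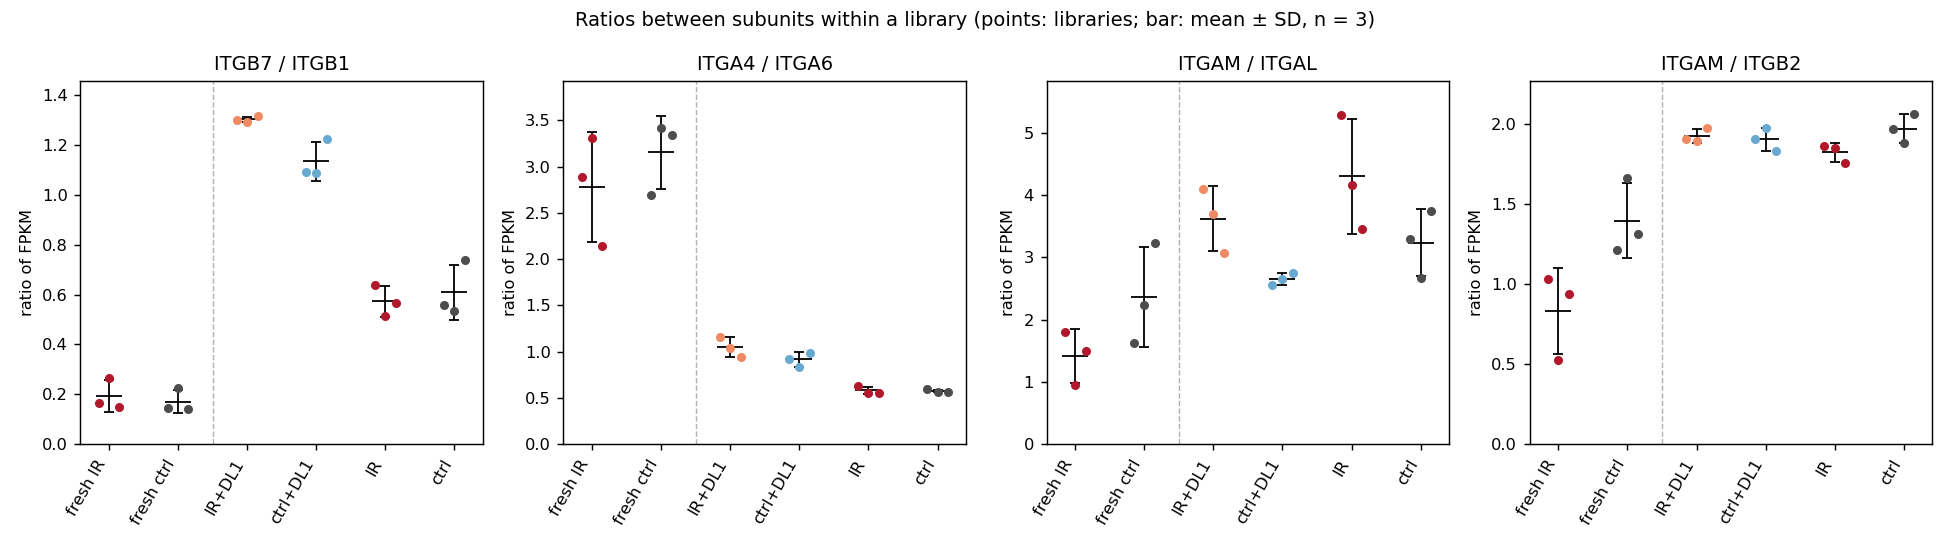
Ratio of FPKM values (vertical axes, from 0) between pairs of subunits within each library, by group; points are libraries and bars the mean ± SD of 3. The ratio of ITGB7 to ITGB1 exceeds 1 in the 6 DL1 cultures alone, and that of ITGAM to ITGB2 is near 1.9 throughout the cultures.

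Myeloid markers moved with DL1 too, in the direction of ITGB2 and ITGAM. The macrophage sum was between 869 and 1122 FPKM in irradiated DL1 against 3579 to 5327 FPKM in irradiated cultures, and between 477 and 671 FPKM in control DL1 against 1887 to 2748 FPKM in control cultures. Of 10 tested markers, 10 fell in irradiated and 9 in control cultures. Neutrophil markers fell in 8 of 9 and in 6 of 9 tested, with 1 rising in each. LSK marker sums were between 848 and 877 FPKM in irradiated DL1 against 708 to 821 FPKM in irradiated cultures, and between 943 and 963 FPKM in control DL1 against 733 to 859 FPKM in control cultures, without overlap. Most of it came from LY6A, at 591 FPKM in irradiated DL1 and 596 FPKM in control DL1 cultures, and CD34, at 204 and 271 FPKM. HLF, of the same list, averaged 1.23 FPKM in irradiated DL1 against 3.05 FPKM in irradiated cultures, and 1.25 FPKM in control DL1 against 3.13 FPKM in control cultures. Of 7 tested LSK markers 4 rose and 1 fell in irradiated cultures, and 3 rose and 1 fell in control cultures. The part of cells carrying these markers in the changes of the integrin chains was not tested.

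Integrin subunits outside the 10 moved in both directions. Of 16 listed 7 were tested, and 5 rose and 2 fell with DL1 in both irradiated and control cultures. Over all tested genes 41.4% were called in irradiated and 26.3% in control cultures. ITGAX, a partner of ITGB2 that marks dendritic cells, had 43.1, 31.5 and 30.6 FPKM in irradiated DL1 cultures, against 4.50, 2.34 and 1.90 FPKM in irradiated cultures, and 28.8, 25.6 and 34.6 FPKM in control DL1 cultures, against 3.39, 2.54 and 3.95 FPKM in control cultures. On the log2(FPKM + 1) scale these were the largest rises of any integrin chain tested (3.24 ± 0.22 and 2.84 ± 0.22, adjusted p = 7.99e-07 and 3.28e-06). The ranking depended on the setting. Over the alternatives the highest estimates were 3.79 for ITGAE and 3.62 for ITGAX in irradiated cultures, and 3.15 and 3.14 in control cultures. ITGAE, the partner of ITGB7 on intraepithelial T cells and some dendritic cells, had 13.9, 7.95 and 7.17 FPKM in irradiated DL1 cultures, against 1.16, 0.415 and 0.370 FPKM in irradiated cultures. In control cultures it had 7.74, 6.51 and 10.9 FPKM with DL1, against 0.926, 0.514 and 1.18 FPKM without, so ITGAE rose together with ITGB7 (2.67 ± 0.25 in irradiated and 2.31 ± 0.25 in control cultures, adjusted p = 7.01e-06 and 3.32e-05).

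ITGAD, the remaining partner of ITGB2, rose by 1.54 ± 0.12 in irradiated and 1.35 ± 0.12 in control cultures (adjusted p = 2.51e-06 and 1.07e-05), to between 2.04 and 3.22 FPKM with DL1. Among platelet chains ITGA2B had 26.4, 19.9 and 23.6 FPKM in irradiated DL1 against 10.9, 11.2 and 11.1 FPKM in irradiated cultures (1.0 ± 0.099, adjusted p = 1.04e-05), and 24.8, 21.8 and 28.6 FPKM in control DL1 against 6.76, 6.98 and 6.67 FPKM in control cultures (1.73 ± 0.099, adjusted p = 5.86e-07). ITGB3 rose by 0.70 ± 0.078 in each. Megakaryocyte marker sums were between 77.5 and 98.8 FPKM in irradiated DL1 and between 199.5 and 277 FPKM in irradiated cultures, and between 113 and 117 FPKM in control DL1 and between 81.4 and 109 FPKM in control cultures. These sums include ITGA2B itself. In control DL1 cultures it averaged 25.1 FPKM of a mean sum of 115 FPKM. In control cultures it averaged 6.80 FPKM of 95.6 FPKM. Of 4 tested megakaryocyte markers, ITGA2B rose in both, 2 fell in irradiated and 0 fell in control cultures, and their part in the ITGA2B value was not tested. Falling chains were ITGB5, with means of 16.96 ± 1.56 FPKM in irradiated DL1 and 60.5 ± 14.9 FPKM in irradiated cultures (-1.75 ± 0.16, adjusted p = 7.39e-06) and a change of -1.4 ± 0.16 in control cultures, and ITGA1, a collagen receptor chain (-0.57 ± 0.19 and -0.62 ± 0.19, adjusted p = 0.0305 and 0.0313). The ITGA1 call was lost under 6 of 12 alternatives in irradiated cultures, with adjusted p up to 0.126 (without irradiated replicate 1), and under 7 of 12 in control cultures, with adjusted p up to 0.106 (without control DL1 replicate 1).

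Of 5 tested dendritic markers, 3 rose with DL1 in both irradiated and control cultures, and the plasmacytoid gene SIGLECH was at most 0.279 FPKM. The 5 included ITGAX itself and FLT3, which was also counted among the LSK markers. The 8 dendritic markers summed to between 1002 and 1246 FPKM in irradiated DL1 and between 773 and 1342 FPKM in irradiated cultures, and to between 805 and 888 FPKM in control DL1 and between 536 and 905 FPKM in control cultures, so both pairs overlapped. The 10 T and NK cell markers summed to between 20.6 and 26.3 FPKM in irradiated DL1 and between 25.8 and 34.6 FPKM in control DL1 cultures, and to at most 3.36 FPKM in cultures without DL1, where CD3E, CD8A, CD4 and NCR1 averaged under 0.1 FPKM, as they did with DL1. Most of the sum with DL1 came from the granzyme genes GZMB, with means of 14.3 FPKM in irradiated DL1 and 17.6 FPKM in control DL1 cultures, and GZMA, with 4.02 and 5.14 FPKM in the same groups. Their part in the ITGAX, ITGAE and ITGB7 values was not tested.

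**Figure D5:**
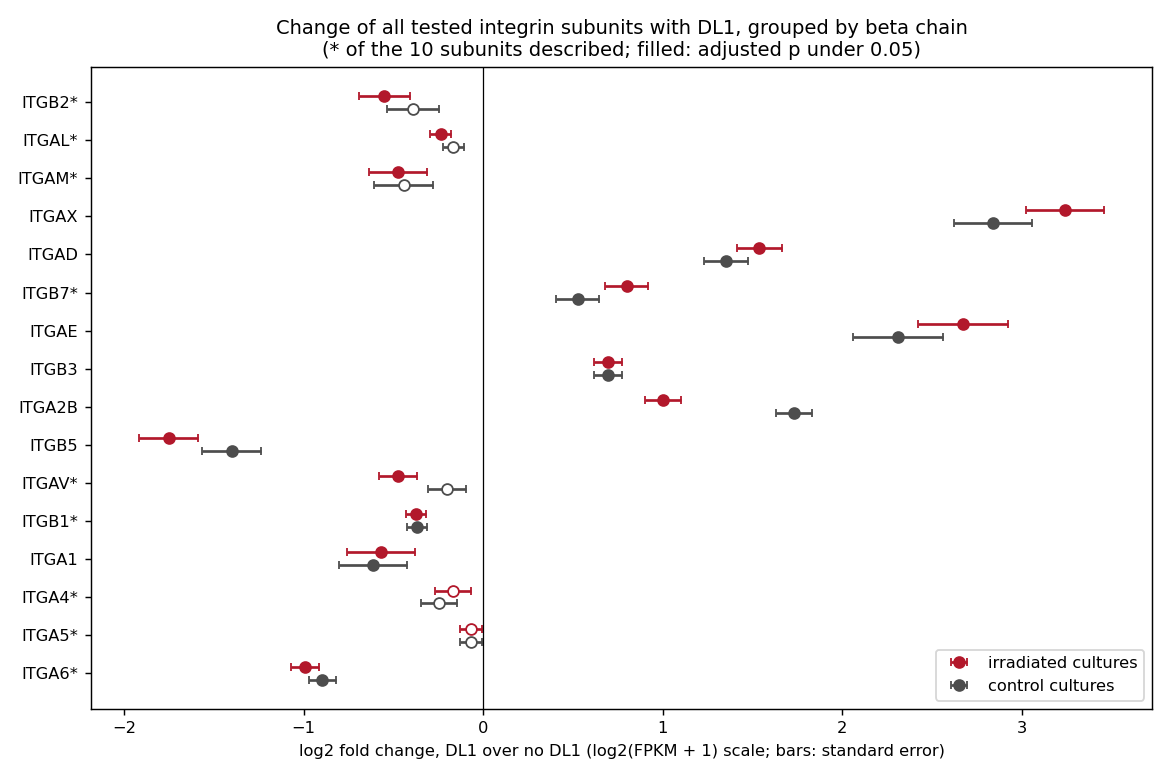
Log2 fold change with DL1 (horizontal axis, log2(FPKM + 1) scale) of all 16 integrin subunits tested in culture, ordered by beta chain; bars are standard errors, filled points have an adjusted p under 0.05, and asterisks mark the subunits described in full. Of the alpha chains that pair with ITGB2, ITGAX and ITGAD lie well right of 0 and ITGAL and ITGAM left of it, and ITGB7 and ITGAE both lie right of 0.

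ITGAM, ITGAX and ITGAD are neighbouring protein-coding genes in this order on mouse chromosome 7. Because the first of them fell or was lower with DL1 while the next rose, the 250 bases before the start of each of ITGAM and ITGAX, and of ITGB7, the member that rose, are shown 5′ to 3′ from RefSeq on GRCm38.p6. They lie at chr7:128062390-128062639 on the plus strand, chr7:128129300-128129549 on the plus strand and chr15:102231936-102232185 on the minus strand. Capitals mark matches, on either strand, to the letters TTNNGNAA (C/EBP-like), TGGGAA (the core bound by the Notch partner RBPJ) or GAGGAA (the core bound by the myeloid factor SPI1), and no 2 marked matches overlap.
ITGAM: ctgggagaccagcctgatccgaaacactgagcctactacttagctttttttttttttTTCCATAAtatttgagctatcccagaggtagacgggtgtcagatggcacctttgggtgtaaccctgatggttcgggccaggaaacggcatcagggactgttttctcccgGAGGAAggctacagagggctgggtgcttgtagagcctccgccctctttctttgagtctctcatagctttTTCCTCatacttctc
ITGAX: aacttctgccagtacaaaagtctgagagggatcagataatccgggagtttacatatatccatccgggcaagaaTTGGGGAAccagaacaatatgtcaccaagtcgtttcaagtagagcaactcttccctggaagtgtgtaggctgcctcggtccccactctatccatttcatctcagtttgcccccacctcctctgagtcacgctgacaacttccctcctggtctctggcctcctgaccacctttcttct
ITGB7: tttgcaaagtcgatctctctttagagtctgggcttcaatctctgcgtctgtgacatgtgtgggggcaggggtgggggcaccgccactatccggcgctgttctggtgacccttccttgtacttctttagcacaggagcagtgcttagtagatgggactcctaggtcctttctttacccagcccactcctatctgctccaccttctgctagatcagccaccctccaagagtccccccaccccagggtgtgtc
ITGAM had a C/EBP-like match 193 bases before the start and SPI1 cores at 84 and 15 bases, ITGAX had a C/EBP-like match at 177 bases, and ITGB7 had none of the 3 in this window. Of the 10 subunits 7 had a promoter entry in the table, and among these 7 the C/EBP-like letters were found in 2, the SPI1 core in 4 and the RBPJ core in 0. Over 32851 mouse promoter windows of this length the shares were 36.8%, 23.3% and 21.6%. The matches are a description of letters only.

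Of 11 tested integrin ligands 8 fell and 2 rose with DL1 in irradiated cultures, where 17% of all tested genes fell, and 7 fell and 2 rose in control cultures, where 12.3% fell. Fibronectin, the ligand of ITGA4 and ITGA5 with ITGB1, encoded by FN1, had 1.11, 1.27 and 1.23 FPKM in irradiated DL1 cultures, against 43.9, 37.7 and 24.0 FPKM in irradiated cultures, and 0.572, 0.930 and 0.466 FPKM in control DL1 cultures, against 21.6, 18.01 and 19.7 FPKM in control cultures. Its change was -4.00 ± 0.17 in irradiated and -3.65 ± 0.17 in control cultures (adjusted p = 7.15e-08 and 2.75e-07). Osteopontin, encoded by SPP1, averaged 51.0 ± 2.95 FPKM in irradiated DL1 and 305 ± 37.8 FPKM in irradiated cultures (-2.55 ± 0.14, adjusted p = 1.87e-07). THBS1 changed by -1.83 ± 0.15 in irradiated and -1.78 ± 0.15 in control cultures. Macrophage markers, given above, also fell with DL1 in both, and their part in the ligand values was not tested.

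Of 26 tested activation and tail adaptors 5 rose and 5 fell with DL1 in irradiated cultures, where 41.4% of all tested genes were called. In control cultures 4 rose and 5 fell, where 26.3% were called. FYN (0.89 ± 0.065 in irradiated, 0.45 ± 0.065 in control cultures) and PTK2 (0.99 ± 0.083 and 0.67 ± 0.083) rose in both, and PARVB, an actin-binding parvin, fell in irradiated cultures (-1.09 ± 0.10). The largest adjusted p of these was 2.55e-04. Of 7 tested homing receptors, 4 fell and 2 rose in irradiated cultures, and 4 fell and 1 rose in control cultures. P-selectin, encoded by SELP, averaged 8.94 ± 1.69 FPKM in irradiated DL1 and 21.7 ± 3.48 FPKM in irradiated cultures (-1.20 ± 0.18, adjusted p = 3.29e-04), and 6.68 ± 1.93 FPKM in control DL1 and 20.9 ± 2.32 FPKM in control cultures (-1.54 ± 0.18, adjusted p = 7.28e-05). The hyaluronan receptor CD44 fell as well in both.

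Over the 12 cultured libraries the 3 subunits with the widest range of group means on the log2(FPKM + 1) scale were ITGA6 (1.02), ITGB2 (0.89) and ITGAM (0.83). Each was set against all 12011 tested genes by the root mean square difference of the centred log2 values, a description in which all genes share the same libraries. Nearest to ITGA6 were PKD2, at 0.0703, and PTGS1, at 0.0806, where the median gene lay at 0.522. PTGS1, the constitutive cyclooxygenase, averaged 22.0 FPKM in irradiated DL1, 22.3 FPKM in control DL1, 45.2 FPKM in irradiated and 41.6 FPKM in control cultures. ITGB2 and ITGAM were each other's nearest gene, at 0.0580, where the median gene lay at 0.409 from ITGB2 and 0.405 from ITGAM. After ITGAM, the chemokine receptor gene CCR1 was nearest to ITGB2, at 0.0711.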

How the data were processed

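Total RNA was isolated with the miRNeasy kit and TruSeq v2 libraries were prepared from it, per the labels' protocols. The authors deposited FPKM in 2 tables of 25629 rows, 1 for the 6 fresh and 1 for the 12 cultured libraries; of 28 repeated names the row with the higher mean was kept. Per the submitters' processing notes the tools were TopHat 1.4.1, Cufflinks 1.3.0 and Cuffdiff, and the build hg19, a human one for mouse samples. The annotation, filters and scaling are not given in the sources used here. One label field calls the controls irradiated; titles and conditions, which call them control, were followed. The members and all gene lists were chosen with earlier results of these data known.

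Moderated tests with a trend (limma 3.58.1, R 4.3.3) were run on log2(FPKM + 1) for genes with a mean of at least 1 FPKM, 12890 in the fresh and 12011 in the cultured table. Benjamini-Hochberg adjustment ran over all of them, and genes under 0.05 were called. All 4 cultured groups entered 1 fit, and comparisons within it share libraries. The step was tested on simulated data. All 10 subunits are named, and of every other list at most the 3 called genes of smallest p in a comparison; some of these are not reported here. Read totals are not known from FPKM. Judged by the spacing of low values, which fell on small fractions of each other for 25.9% to 30.7% of genes within 0.1% (0.633% to 1.07% with a shifted step), depth relative to the first control library was between 0.644 and 1 in fresh and between 0.488 and 1.09 in cultured libraries. Labels do not say whether 1 mouse gave cells to several cultures. Same-numbered libraries deviated together in irradiated cultures with and without DL1 (correlations of deviations 0.145, 0.235 and 0.355, a pairing seen in the data and not stated in the labels). In fresh cells these correlations were 0.211, 0.118 and 0.057, and 5 of 6 libraries were highest with their own number. The other cultured comparisons showed no such pairing throughout. Other settings tried were a pseudocount of 0.1 or 5, a mean of at least 5 FPKM or none, median-ratio scaling, a replicate block, fits of the compared groups alone and the omission of each library.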

Additional observations from a re-analysis of the deposited data

How the results depend on the processing

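The calls of ITGA6, ITGB1 and ITGB7 with DL1 kept their direction and their side of the threshold in all 13 alternatives of each culture type, and 57 of 60 group means moved by less than the spread between replicates under median-ratio scaling. The exceptions, all in control DL1 cultures, were ITGA5 at 21.5, ITGAV at 4.63 and ITGB1 at 68.1 FPKM. The count of subunits called after irradiation in culture without DL1, 1 of 9, was 0 without the filter and with only the 2 groups compared, 2 under median-ratio scaling and with the replicate block, and between 0 and 5 with 1 library left out. With only the 2 groups compared it was 3 after irradiation with DL1 and 6 with DL1 in control cultures, where leaving out 1 library gave between 3 and 5. The cause of these moves was not tested.

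Between irradiated cultures with and without DL1, 6 of 6 libraries correlated best with their own replicate number, and the block changed no call of the 10 subunits. In fresh cells 5 of 6 did, with correlations of deviations between 0.057 and 0.211 for equal and between -0.223 and 0.074 for different numbers. In each other pair of cultured groups at most 2 of 6 did, and correlations for equal numbers lay between -0.168 and 0.158. Over all cultured groups it was 14 of 36. The labels state no pairing. With the block the counts called were 0 in fresh cells, 2 after irradiation in culture (ITGB2, and ITGAV at adjusted p = 0.0249), 0 after irradiation with DL1, 4 with DL1 in control cultures (ITGA4 added, adjusted p = 0.0431), 7 with DL1 in irradiated cultures and 0 for the difference.

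Counts over all genes moved by more than 1.5 times in fresh cells (13; 4 without the filter; 5 to 14 with 1 library left out), after irradiation in culture (3568; 1623 with 2 groups; 1884 to 4703), after irradiation with DL1 (380; 222 without the filter, 1072 with 2 groups; 104 to 285) and for the difference between irradiation changes (9; 18 at a pseudocount of 5, 3 without the filter, 5 at a mean of 5 FPKM, 3 with the block; 0 to 193, the last without irradiated replicate 3).

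Changes near 0 turned sign without a call. Under median-ratio scaling these were ITGAL (0.032) and ITGB1 (0.019) after irradiation in culture, and ITGB1 (0.0011) after irradiation with DL1. With 1 library left out the log2 change in fresh cells ran from -0.0061 to 0.51 for ITGAL, -0.084 to 0.049 for ITGB1 and -0.082 to 0.35 for ITGB7. In culture it ran from -0.029 to 0.017 for ITGAL, -0.071 to 0.027 for ITGB1 and -0.22 to 0.035 for ITGB7, and with DL1 from -0.00098 to 0.077 for ITGA6 and -0.040 to 0.086 for ITGAV. The difference between irradiation changes ran from -0.037 to 0.18 for ITGA4, -0.062 to 0.041 for ITGA5, -0.21 to 0.15 for ITGAM, -0.051 to 0.047 for ITGB1 and -0.31 to 0.0026 for ITGB2.

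With 3 libraries a group, FPKM without read counts and relative depth down to 0.488 in irradiated DL1 replicate 2, precision was limited, and ITGA9, below the filter, was not tested in culture.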
